A study of Mus musculus with 30 samples.

Results

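Aminoacyl-tRNA synthetases are the enzymes that join each amino acid to its transfer RNA, the step that supplies the ribosome with charged tRNA. The genes were found by symbol in the deposited table, and 36 synthetase symbols were present. The 27 whose summed value averaged at least 0.5 FPKM over all 30 libraries were kept, out of 9389 gene symbols that met the same limit and 20227 in the table. FPKM counts fragments per length of transcript and per size of the library, and the values of a gene's transcripts were added, with a transcript that a library did not list counted as 0. The symbols and the limit of 0.5 FPKM set the 27 genes, not a diet difference, but earlier results of these data were known. Genes described singly below were mostly picked by their p in the diet comparisons.

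Whole hippocampi of 30 mice were sequenced at 15 months of age, 6 from each of the diets named 5% P, 10% P, 15% P, ChowCR and Chow. P is read here as protein and CR as caloric restriction from the series title, and the labels give neither the composition of the diets nor a strain or genotype. Every diet had 3 females and 3 males, described as biological replicates, and no treatment besides diet is named. In the sample titles the ChowCR mice carry higher numbers than all others, so a batch that followed this numbering cannot be told apart from that diet.

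Most synthetases serve either the cytosol or the mitochondrion, and the mitochondrial enzymes are also encoded in the nucleus, usually by genes whose symbols end in 2. Several cytosolic synthetases are held with scaffold proteins in a multi-synthetase complex. When amino acids run short, uncharged tRNA activates the kinase GCN2, translation slows and the transcription factor ATF4 induces amino acid transporters, amino acid synthesis enzymes and many cytosolic synthetases. In humans, defects of synthetases such as GARS, YARS and HARS are known from inherited disease of peripheral nerve, and defects of the mitochondrial AARS2 from leukoencephalopathy.

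ATF4 binds composite sites in which it pairs with a C/EBP family partner, and the letters TGATGNAA, read on both strands, stand for such a site here. RefSeq windows of GRCm38.p6 reaching from 250 bases before to 50 bases after a start site were at hand for 19 of the 27 genes, as 20 windows. Matches lay in 5 of the 19 genes, or 26.3%, against 1.88% of the 8242 windows of all symbols tested and 3.97% of all 32851 windows. The median GC content was 56.8% in the synthetase windows and 61.7% in the windows of all symbols tested. The matches of 4 genes are shown as 30 bases on the gene's strand with the motif in capitals, because they mark synthetase genes in which a diet response through ATF4 could be looked for directly. A match is a description of letters and not a measured binding site. 
Gars, chr6:55037960-55037989, plus strand: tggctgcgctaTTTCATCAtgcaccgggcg
Iars, chr13:49682126-49682155, plus strand: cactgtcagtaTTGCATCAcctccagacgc
Tars, chr15:11399655-11399684, minus strand: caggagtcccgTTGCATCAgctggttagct
Yars, chr4:129189895-129189924, plus strand: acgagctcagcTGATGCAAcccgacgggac

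Of these matches 3 carried the motif on the strand opposite to the gene, and that of Yars was on the gene's own strand. In Yars the match began 4 bases after the start site, in Tars 15 bases before it, in Gars 30 bases before it and in Iars 8 bases after it. Among other genes of amino acid shortage, the windows of Asns, Atf3, Chac1 and Trib3 held 1 match each, and those of Ddit3, Psat1 and Sesn2 held 0. Of the 5 synthetase genes with a match, 1 was higher in sign in 5% P than in Chow, 2 in 10% P, 2 in 15% P and 3 in ChowCR. Of the 14 without a match, 6 were higher in sign in 5% P, 8 in 10% P, 8 in 15% P and 9 in ChowCR. The shares of all symbols higher in sign were 49.7%, 50.9%, 47.5% and 52.6% in the same order. Whether a match goes with a diet difference was not tested. Iars, with a match, and Vars2 and Farsb, without a match, hold no coding transcript in their sums, as described below.

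Sars, which charges serine tRNA, was the most abundant synthetase at 56.1 FPKM over all libraries, followed by Gars, which charges glycine tRNA in both compartments, at 38.6 FPKM. Next came a group at similar levels, with 26.9 FPKM for Nars (asparagine), 26.7 FPKM for Aars (alanine), 26.3 FPKM for Yars (tyrosine), 23.8 FPKM for Wars (tryptophan) and 22.5 FPKM for Hars (histidine). Sars exceeded Gars in 30 of 30 libraries, Gars exceeded Nars in 28, and Hars exceeded the next gene, Eprs, in 30. From Nars down to Hars the gap between neighbours stayed under the larger of their SDs, as it did between all neighbours from Eprs to the least abundant gene. Eprs, the joint glutamyl- and prolyl-tRNA synthetase of the complex, averaged 12.2 FPKM, Qars (glutamine) 11.5 FPKM and Farsa, the alpha subunit of the phenylalanine enzyme, 7.78 FPKM. Rars (arginine), Tars (threonine), Cars (cysteine) and Tarsl2, a second cytosolic threonine enzyme, lay between 4.48 and 6.39 FPKM.

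The 10 mitochondrial genes had a median level of 3.37 FPKM, against 9.63 FPKM for the 16 cytosolic ones. Iars2, the mitochondrial isoleucine enzyme, was highest among them at 9.09 FPKM, followed by Yars2 at 6.33 FPKM, Hars2 at 4.81 FPKM, Tars2 at 4.80 FPKM and Fars2 at 4.11 FPKM. Aars2 averaged 2.63 FPKM, Mars2 (methionine) 1.03 FPKM, Vars2 (valine) 0.938 FPKM and Nars2 0.605 FPKM. For tyrosine the cytosolic gene exceeded its mitochondrial partner in 30 of 30 libraries, by a ratio of levels between 2.50 and 6.93 with a median of 4.17. For histidine it did so in 30 of 30, with ratios from 2.99 to 16.0 and a median of 4.45. Coding transcripts gave only 1.59 FPKM of the Hars2 sum in these ratios. Hars and Hars2 lie head to head and overlap by 198 bases on opposite strands, so their values are uncertain where counting ignored strand. For alanine the cytosolic gene was higher in 28 of 30 libraries. For phenylalanine the Farsa sum exceeded Fars2 in 27. Coding transcripts gave only 3.61 FPKM of the Farsa sum, however, against 4.11 FPKM for the single coding transcript of Fars2. For asparagine Nars exceeded Nars2 in 30 of 30. For isoleucine the order was the other way, with Iars above Iars2 in 0 of 30, and for methionine Mars exceeded Mars2 in 16, at 0.752 FPKM for Mars and 1.03 FPKM for Mars2, but the sums of Iars and Mars hold no coding transcript, as described below. For threonine the cytosolic Tars exceeded the mitochondrial Tars2 in 19 libraries, at 5.87 ± 3.80 FPKM for Tars and 4.80 ± 2.71 FPKM for Tars2 (SD, n = 30), a gap inside their spread.

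**Figure D1:**
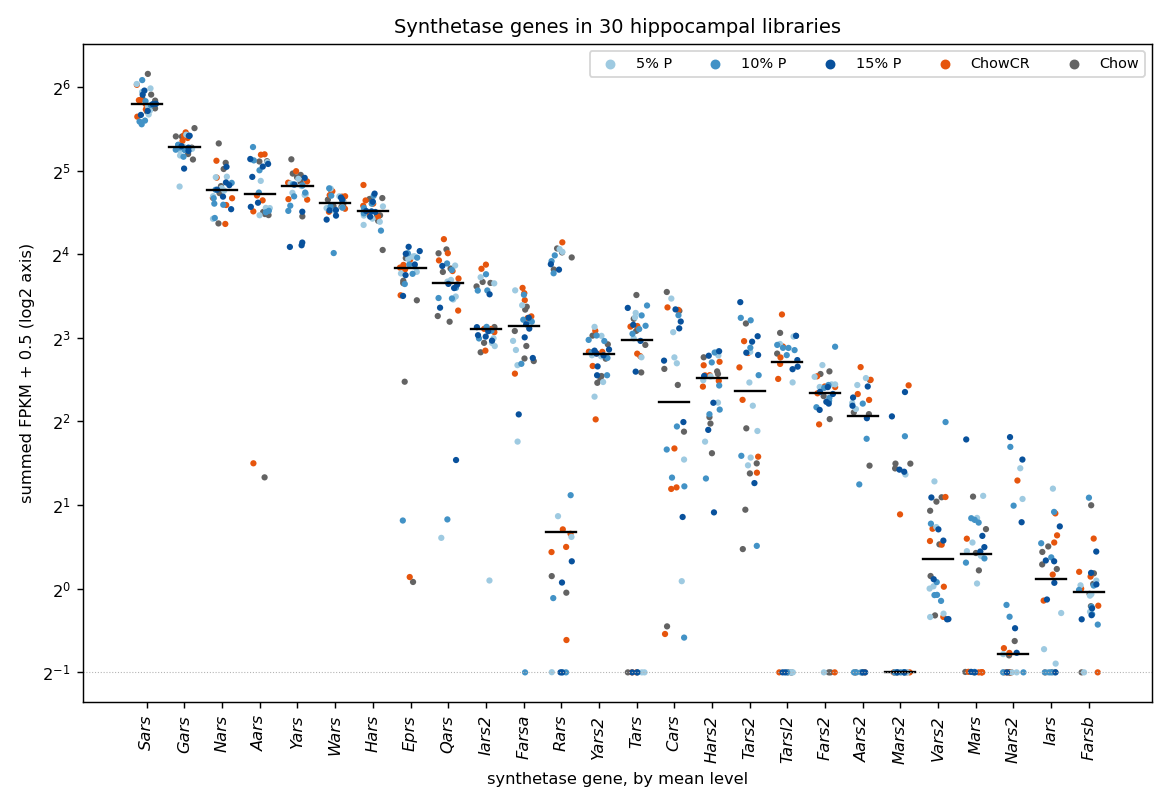
Summed FPKM plus 0.5 (log2 axis) of 26 of the 27 synthetase genes in 30 libraries, ordered by mean level, with 1 point per library coloured by diet and a bar at the median; the dotted line is a value of 0. Sars to Hars sit in narrow bands apart from 2 low libraries of Aars, while genes such as Rars, Tars and Tarsl2 split into libraries within a band and libraries at or near 0.

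Of the 27 genes 4 hold no coding mRNA in their sums. For Vars2, Mars, Iars and Farsb no protein-coding transcript in the table had a value, and the leading transcript, the one with the highest mean, was annotated as a retained intron. Their sums were under 1 FPKM, and at the depth implied below the leading transcript corresponded to about 3.7 reads a library for Mars, 3.4 for Farsb and 1.2 for Iars. At such counts differences between diets cannot be read as changes of the enzymes' mRNA, but the 4 genes stay in the counts of genes given here. In other genes coding transcripts held only part of the sum. They gave 1.59 of 4.81 FPKM in Hars2, 3.61 of 7.78 FPKM in Farsa and 3.22 of 4.80 FPKM in Tars2, for example. Mars, which charges methionine tRNA in the cytosol, also overlaps Ddit3 by 68 bases on the opposite strand. Kars and Lars, for lysine and leucine, were not analysed here. Just inside the limit of 0.5 FPKM were Farsb at 0.516, Iars at 0.555 and Nars2 at 0.605 FPKM, and just outside it were Vars at 0.469, Cars2 at 0.324 and Rars2 at 0.322 FPKM. The other symbols under the limit were Sars2, Ears2, Dars, Lars2, Wars2 and Pars2, between 0 and 0.247 FPKM.

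The table gives no counts, but low values of genes with 1 transcript clustered at whole multiples of 1 read. Between 51.8% and 65.8% of them lay within 0.05 reads of a whole number, where 10% would by chance for a step fixed beforehand. The step was instead the best fit within a limited range for each library. It implied 9877000 to 12731000 reads a library, which is an estimate. About 1764 reads a library then lay behind the leading transcript of Aars and 847 behind that of Yars. For Rars the mean was 140 with unlisted libraries at 0, but its transcript was listed in only 12 of 30 libraries. Summed neuron markers ranged from 1808 to 2582 FPKM over all libraries, with 13 of 14 markers tested. Astrocyte markers summed to 528 to 774 FPKM in 5% P, 743 to 881 in 10% P, 522 to 850 in 15% P, 546 to 710 in ChowCR and 476 to 723 in Chow. The sums of 10% P lay wholly above those of Chow, as did 0.181% of single symbols. Higher in sign than in Chow were 7 of 8 markers in 5% P, 8 in 10% P, 6 in 15% P and 7 in ChowCR, with 0 past the threshold. Of all symbols 49.7%, 50.9%, 47.5% and 52.6% were higher in sign in the same order. Choroid plexus markers spanned 37.3 to 8076 FPKM over all libraries. They were lower in sign than in Chow for 9 of 9 tested genes in 5% P, 9 in 10% P, 8 in 15% P and 6 in ChowCR, with 0 past the threshold. Of all 9389 symbols 4715, 4572, 4887 and 4444 were lower in sign in the same order. The defining markers Slc4a5 and F5 were not analysed here. The part of these cell types in the synthetase values was not tested. In whole tissue fewer cells of a type and less RNA per cell cannot be told apart.

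A set of 7 genes was steady, with the highest of 30 libraries under 3 times the lowest: Sars, Gars, Nars, Yars, Wars, Hars and Yars2. They were 25.9% of the synthetase genes, against 15.5% of all symbols tested. The SD given here is what was left after fitting diet and a sex effect shared by all diets. On the log2(FPKM + 0.5) scale it was 0.14 for Gars, 0.14 for Sars, 0.15 for Wars, 0.15 for Hars, 0.22 for Yars, 0.23 for Nars and 0.26 for Yars2. The median SD was 0.82 over the 27 genes and 0.95 over all symbols. A small range in the same libraries picked the 7 genes, so their lower SDs follow from that choice. The shares of 25.9% and 15.5% were not matched for expression level. In each library these 7 genes held between 58.3% and 74.6% of the summed synthetase FPKM, and Sars alone between 15.0% and 23.4%.

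Values above 0 in all libraries were found for 15 of the 27 genes, or 55.6%, against 43% of all symbols tested. In 9 genes the leading transcript was listed in all 30 libraries. In the others it was missing from some libraries. Where it was listed, its values kept well away from 0 in some genes and came near 0 in others. The coding transcript of Rars was listed in 12 of 30 libraries at 12.6 to 15.9 FPKM. That of Tars was listed in 22 at 5.50 to 10.9 FPKM, that of Tarsl2 in 20 at 4.87 to 9.21 FPKM and that of Fars2 in 26 at 3.40 to 6.93 FPKM. Aars2 was listed in 19 libraries at 1.87 to 5.77 FPKM. That of Eprs was listed in 29 at 0.558 to 16.3 FPKM and that of Farsa in 28 at 0.0662 to 7.47 FPKM, and the retained-intron transcripts of Mars, Vars2 and Iars had listed values down to 0, 0 and 0.0012 FPKM. Rars, Tars and Tarsl2 were thus low in the libraries that did not list the transcript. The SD left after fitting diet and sex reached 1.98 for Rars, 1.95 for Tars and 1.93 for Tarsl2. Between 3 and 8 of the 27 leading transcripts were unlisted in a library, with medians of 5.00 in 5% P, 4.50 in 10% P, 5.00 in 15% P, 6.50 in ChowCR and 4.50 in Chow. Why a transcript was unlisted was not tested.

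**Figure D2:**
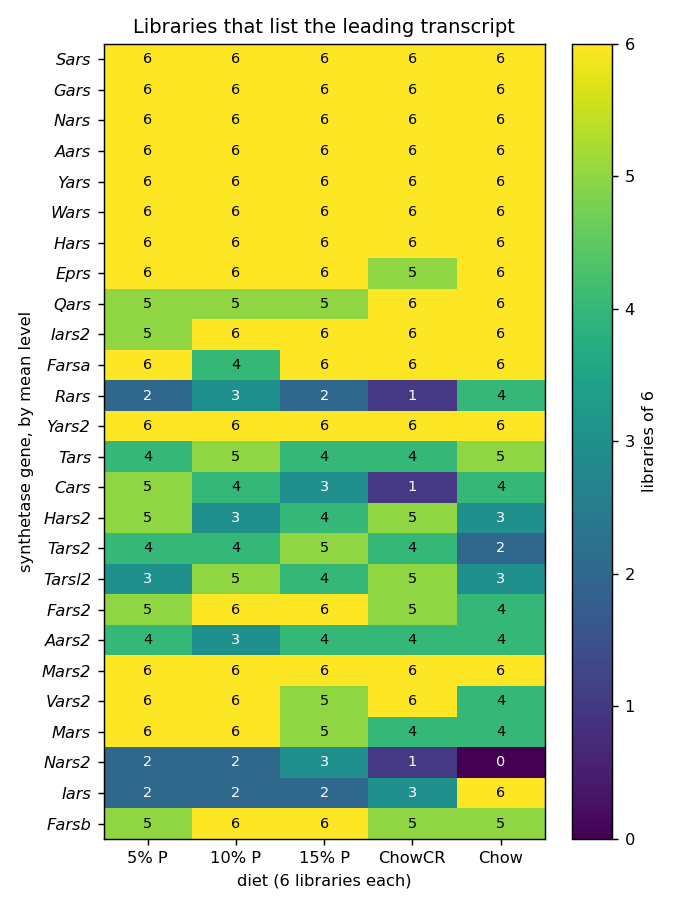
Number of libraries, of 6 a diet, that list the leading transcript of 26 of the 27 synthetase genes, ordered by mean level. The genes listed throughout, such as Sars, Gars and Yars, show 6 in every diet, and Rars shows 2 in 5% P, 3 in 10% P, 2 in 15% P, 1 in ChowCR and 4 in Chow.

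The diets raise the question of whether less dietary protein, or less food, changes the expression of the charging enzymes. No synthetase gene passed the threshold of 0.05 on the adjusted p in any of 12 comparisons (limma, Benjamini-Hochberg over 9389 symbols). Missing the threshold does not show equal levels, and the 95% interval of the log2 difference of Rars in 5% P from Chow ran from -3.67 to 0.88. In 5% P against Chow 0 of 27 passed, beside 0% of all symbols, and 0 of 27 had an unadjusted p under 0.05, beside 5.12% of all. In 10% P against Chow 0 of 27 passed, beside 0% of all, and 0 had an unadjusted p under 0.05, beside 6.02%. In 15% P against Chow 0 of 27 passed, beside 0.0107% of all, and 3 had an unadjusted p under 0.05, beside 5.26%: Yars was lower, and Tars2 and Nars2 were higher in sign. In ChowCR against Chow 0 of 27 passed, beside 0.0639% of all, and 1 had an unadjusted p under 0.05, beside 6.25%. When the P diets were averaged and set against Chow 0 of 27 passed, beside 0.0107% of all, and Yars and Tars2 had an unadjusted p under 0.05, beside 5.76%.

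Higher in sign than in Chow were 11 of 27 genes in 5% P, beside 49.7% of all symbols, 12 in 10% P, beside 50.9%, 13 in 15% P, beside 47.5%, and 15 in ChowCR, beside 52.6%. With the P diets averaged 10 of 27 were higher in sign than in Chow, beside 48.1%, and over the P diets 18 of 27 had a positive slope with protein percent, beside 48.2%. Against ChowCR 12 of 27 were higher in sign in 5% P, beside 46.6%, 13 in 10% P, beside 47.3%, and 14 in 15% P, beside 44.8%. In females 19 of 27 were higher in sign than in males, beside 51.5%. The median log2 difference over the 27 genes was -0.08 in 5% P, -0.06 in 10% P, -0.03 in 15% P and 0.02 in ChowCR, and over all symbols it was -0.00 in 5% P, 0.01 in 10% P, -0.02 in 15% P and 0.02 in ChowCR. These comparisons share the Chow libraries. In no gene did the 6 libraries of a diet lie wholly above or below those of Chow, beside 0.0639% of all symbols wholly above and 0.181% wholly below in 5% P, 0.181% and 0.138% in 10% P, 0.128% and 0.0959% in 15% P, and 0.469% and 0.138% in ChowCR. Summed over the 16 cytosolic genes and Gars, the level was 275 ± 16.1 FPKM in 5% P, 271 ± 21.9 in 10% P, 273 ± 19.2 in 15% P, 278 ± 14.2 in ChowCR and 283 ± 17.9 in Chow (SD, n = 6 each). Over the 10 mitochondrial genes it was 33.2 ± 6.93 FPKM in 5% P, 37.4 ± 8.42 in 10% P, 37.5 ± 3.10 in 15% P, 36.3 ± 1.49 in ChowCR and 33.7 ± 8.35 in Chow. All of these means lay within 1 SD of that of Chow.

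**Figure D3:**
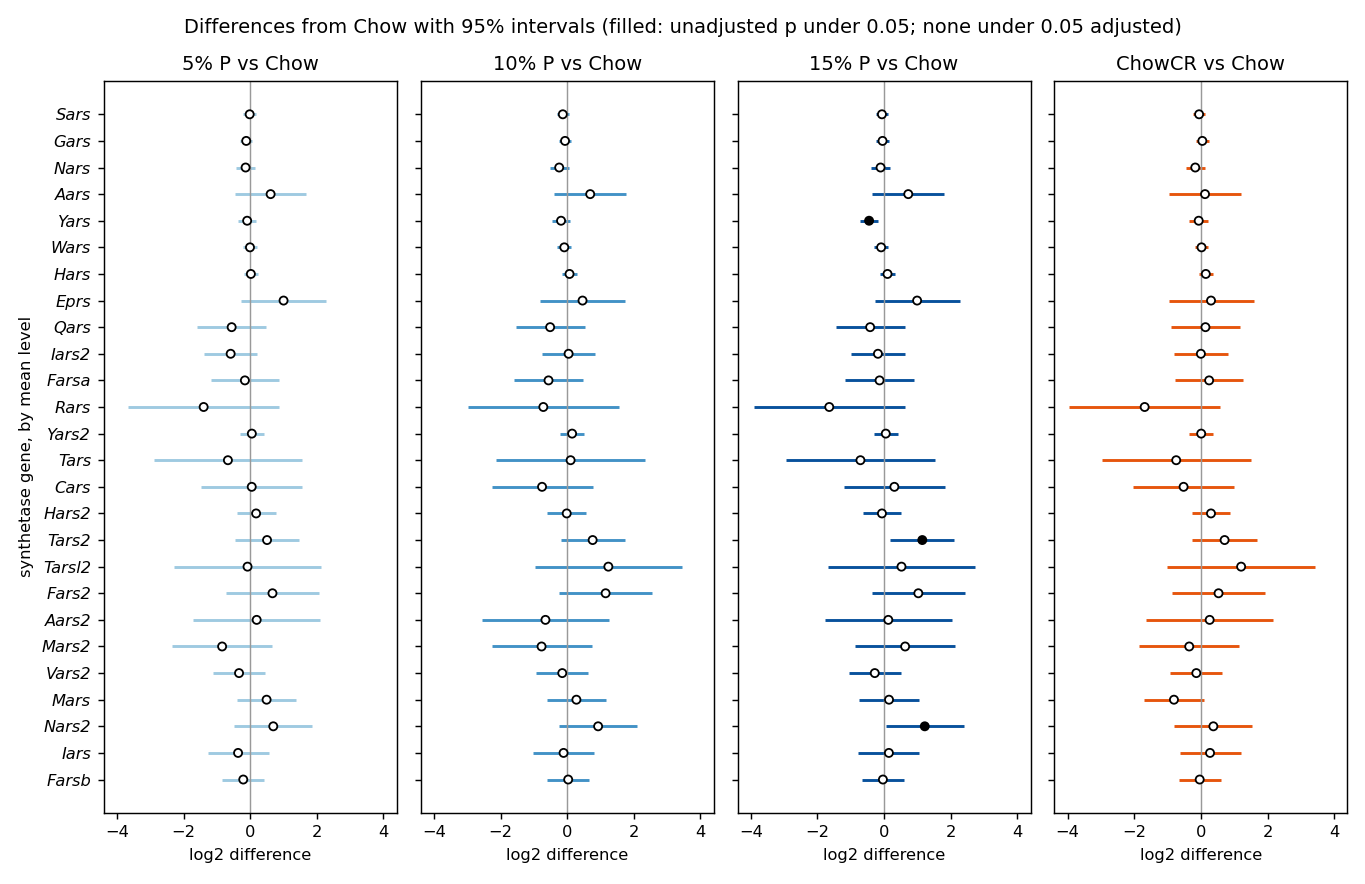
Log2 differences in summed FPKM + 0.5 from Chow (points) with 95% intervals (lines) for 26 of the 27 synthetase genes, ordered by mean level, in 5% P, 10% P, 15% P and ChowCR; filled points have an unadjusted p under 0.05. The 3 filled points are Yars, Tars2 and Nars2 in 15% P. Intervals are short for the steady genes and reach beyond a size of 2 for several others, among them Rars, Tarsl2, Tars and Aars2.

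The intervals were shortest for the steady genes, which were chosen for a small range over all diets, so that small differences between diets follow in part from the choice. Their log2 differences from Chow ran from -0.14 to 0.05 in 5% P, with 95% intervals between -0.43 (Nars) and 0.41 (Yars2). In 10% P they ran from -0.24 to 0.15, with intervals between -0.53 (Nars) and 0.51 (Yars2). In ChowCR they ran from -0.17 to 0.15, with intervals between -0.46 (Nars) and 0.36 (Yars2). In 15% P the 7 differences ran from -0.45 to 0.10, and Yars gave both the lowest value and the lowest bound, -0.73.

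Sars, at chr3:108424865-108445209 (minus strand) (GRCm38, GENCODE M21), had lowest, median and highest values of 50.4, 57.4 and 65.0 FPKM in 5% P, 46.4, 51.2 and 67.2 in 10% P, 50.2, 55.04 and 61.6 in 15% P, 49.5, 55.9 and 64.6 in ChowCR, and 51.7, 57.1 and 70.8 in Chow. All diets overlapped, and the log2 differences from Chow lay between -0.13 in 10% P and -0.02 in 5% P. Gars, at chr6:55038007-55079500 (plus strand), had 27.5, 37.6 and 42.6 FPKM in 5% P, 35.4, 37.9 and 39.1 in 10% P, 32.02, 38.4 and 42.2 in 15% P, 38.2, 40.9 and 43.4 in ChowCR, and 34.6, 40.04 and 45.0 in Chow. Its smallest p was in 5% P against ChowCR, with a log2 difference of -0.16 ± 0.09 (SE) (limma, adjusted p = 0.85). One 5% P library, replicate 1, was at 27.5 FPKM, and without it the difference was -0.08. Nars had 21.1, 24.4 and 28.4 FPKM in 10% P against 20.1, 29.8 and 39.6 in Chow, and the widest spread was among the Chow mice. The log2 difference of Nars was -0.24 ± 0.14 (SE) (limma, adjusted p = 0.84), and -0.15 without Chow replicate 3.

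**Figure D4:**
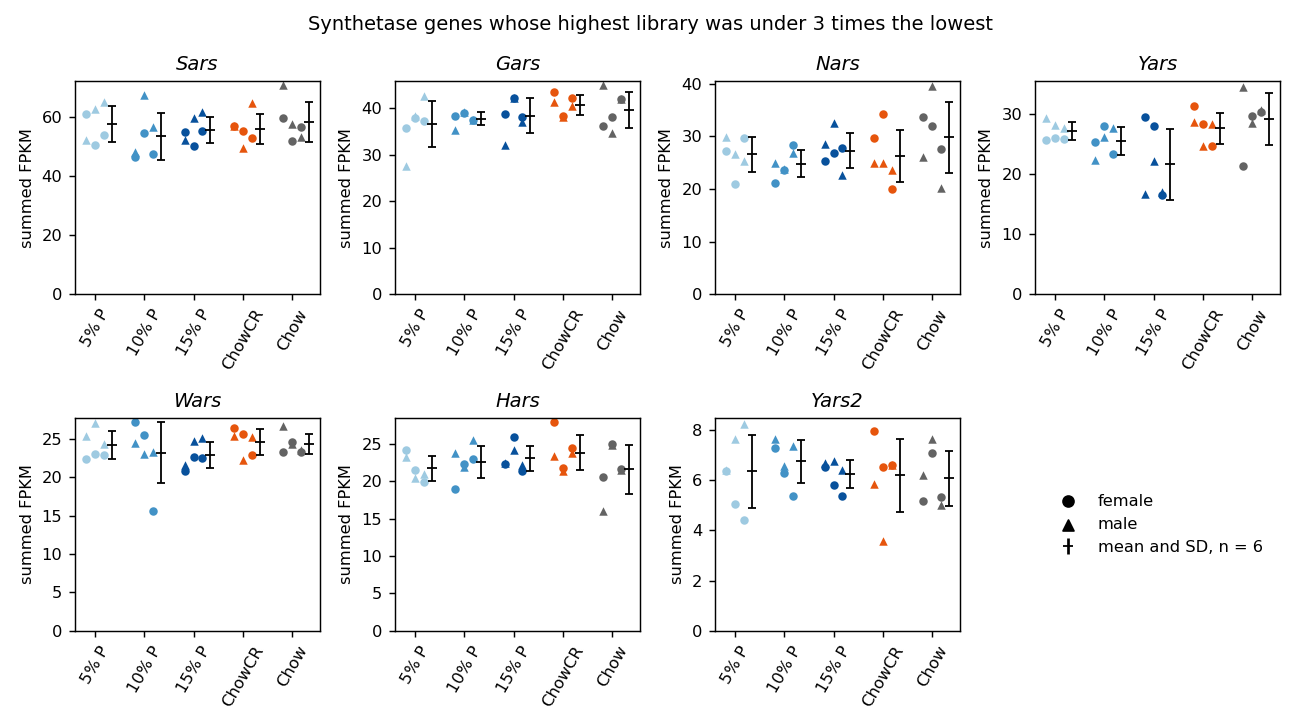
Summed FPKM of the 7 steady synthetase genes by diet (axes from 0), with circles for females, triangles for males and the mean with SD of 6 libraries beside them. All diets overlap in every panel, and 3 of the 6 15% P libraries of Yars sit between 16.5 and 17.1 FPKM, under the lowest Chow library at 21.4 FPKM.

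Yars, at chr4:129189760-129219607 (plus strand), had the smallest p of all synthetase genes in the comparisons with Chow. Its lowest, median and highest values were 25.6, 26.9 and 29.4 FPKM in 5% P, 22.4, 25.7 and 28.04 in 10% P, 16.5, 19.7 and 29.6 in 15% P, 24.6, 28.4 and 31.3 in ChowCR, and 21.4, 30.0 and 34.6 in Chow. Replicates 1, 5 and 6 of 15% P lay at 16.7, 17.1 and 16.5 FPKM, below every library of the other diets, while replicates 2 and 4 lay at 29.6 and 27.97 FPKM, among the Chow values. In 15% P the log2 difference from Chow was -0.45 ± 0.13 (SE) and an unadjusted p of 0.0026, which did not pass (limma, adjusted p = 0.55). It was -0.74 in males (limma, adjusted p = 0.31) and -0.16 in females (limma, adjusted p = 0.95), with 3 mice a diet in each. The test of whether a sex difference varied between diets gave an adjusted p of 0.97 for Yars (limma). One transcript, listed in all libraries, held 96.1% of the sum.

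Across the P diets Yars had a slope of -0.04 per percent of protein on the log2 scale (limma, adjusted p = 0.98), and 0 of 27 genes passed in this trend, beside 0% of all symbols. Mars2 was the other gene with an unadjusted p under 0.05 there, beside 3.97% of all, and it was at 0 in 5 of 6 libraries in 5% P, 5 of 6 in 10% P and 2 of 6 in 15% P. Against ChowCR, Yars in 15% P gave a log2 difference of -0.38 ± 0.13 (SE) (limma, adjusted p = 0.72). With the P diets averaged the difference from Chow was -0.24 ± 0.11 (SE) (limma, adjusted p = 0.85). In the test of any diet difference 0 of 27 genes passed, beside 0.0107% of all, and Yars alone had an unadjusted p under 0.05, beside 5.15% of all.

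The mitochondrial threonine enzyme Tars2, at chr3:95739976-95760206 (minus strand), had 2.28, 3.63 and 6.62 FPKM in 5% P, 0.926, 6.12 and 8.94 in 10% P, 1.90, 6.91 and 10.2 in 15% P, 2.12, 5.02 and 7.28 in ChowCR, and 0.889, 2.21 and 8.51 in Chow. Of the 6 Chow values 5 were below the median of 15% P, and the ranges overlapped. The log2 difference of 15% P from Chow was 1.15 ± 0.47 (SE) (limma, adjusted p = 0.92). With the P diets averaged it was 0.81 ± 0.38 (SE) (limma, adjusted p = 0.85). The leading transcript was listed in 4 libraries in 5% P, 4 in 10% P, 5 in 15% P, 4 in ChowCR and 2 in Chow. Counting only libraries that listed it, the difference of the averaged P diets was -0.10.

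Nars2, the mitochondrial asparagine enzyme at chr7:96951505-97064758 (plus strand), was at 0 in 3 libraries in 5% P, 2 in 10% P, 1 in 15% P, 3 in ChowCR and 4 in Chow. The highest library had 2.21 FPKM in 5% P, 2.74 in 10% P, 3.01 in 15% P, 1.95 in ChowCR and 0.148 in Chow, and the medians were 0.0408, 0.334, 0.728, 0.0437 and 0 FPKM in the same order of diets. Its coding transcript was listed in 2 libraries in 5% P, 2 in 10% P, 3 in 15% P, 1 in ChowCR and 0 in Chow. The log2 difference from Chow was 1.22 ± 0.57 (SE) in 15% P (limma, adjusted p = 0.94) and 0.93 ± 0.57 (SE) in 10% P (limma, adjusted p = 0.85). With the P diets averaged it was 0.95 (limma, adjusted p = 0.85), and in 15% P against ChowCR 0.85 ± 0.57 (SE) (limma, adjusted p = 0.88). Without 15% P replicate 4 the last of these was 0.55, and without 10% P replicate 4 the difference of 10% P from Chow was 0.59. Whether the 0 in 4 Chow libraries is a failed estimate was not tested, and the pseudocount sets the size of such a difference.

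Fars2, which charges mitochondrial phenylalanine tRNA, had 0, 4.94 and 5.88 FPKM in 5% P, 4.0, 4.57 and 6.93 in 10% P, 3.90, 4.36 and 4.82 in 15% P, 0, 4.68 and 5.31 in ChowCR, and 0, 4.01 and 5.56 in Chow. Its values lay between 3.40 and 6.93 FPKM apart from 4 libraries at 0, and none of those were in 10% P or 15% P. In 10% P against Chow the log2 difference was 1.156 ± 0.68 (SE) (limma, adjusted p = 0.84), and 0.65 without Chow replicate 6. Counting only libraries that listed the transcript, it was 0.03. Iars2, at chr1:185284726-185329396 (minus strand), had 0.571, 7.32 and 12.7 FPKM in 5% P, 7.46, 9.80 and 13.0 in 10% P, 7.31, 7.81 and 10.97 in 15% P, 6.69, 8.11 and 14.2 in ChowCR, and 6.59, 10.0 and 12.2 in Chow. The lowest value was that of 5% P replicate 1, the same mouse that was lowest for Gars. The log2 difference of 5% P was -0.59 ± 0.39 (SE) both from Chow (limma, adjusted p = 0.94) and from ChowCR (limma, adjusted p = 0.87). Without that library it was -0.04 from Chow and -0.04 from ChowCR. Iars2 overlaps Rab3gap2 by 2034 bases on the opposite strand and lies 33647 bases from Eprs.

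Eprs, at chr1:185363044-185428360 (plus strand), had 13.1, 14.4 and 15.2 FPKM in 5% P, 1.26, 13.6 and 15.6 in 10% P, 10.8, 14.9 and 16.5 in 15% P, 0.602, 13.7 and 14.8 in ChowCR, and 0.558, 11.3 and 15.0 in Chow. Only 10% P replicate 4, ChowCR replicate 5 and Chow replicate 1 lay at or under 1.26 FPKM, and all others were at or above 5.06 FPKM. In 5% P against Chow the log2 difference was 1.001 ± 0.62 (SE) (limma, adjusted p = 0.94), and 0.44 without Chow replicate 1. Aars had the same feature, at 2.33 FPKM in ChowCR replicate 4 and 2.02 FPKM in Chow replicate 1, while the other 28 libraries lay between 21.6 and 38.4 FPKM. Aars shares 1326 bases on the same strand with Exosc6. Farsa had 0, 8.67 and 10.9 FPKM in 10% P against 5.44, 9.74 and 11.6 in ChowCR, a log2 difference of -0.81 ± 0.50 (SE) (limma, adjusted p = 0.92). Without 10% P replicate 2, the library at 0, it was -0.09.

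Rars, whose product is a member of the multi-synthetase complex, had lowest, median and highest values of 0, 1.18 and 16.2 FPKM in 5% P, 0, 7.41 and 15.3 in 10% P, 0, 0.654 and 14.2 in 15% P, 0.154, 0.995 and 17.1 in ChowCR, and 0.468, 14.3 and 16.3 in Chow. Its coding transcript was listed in 2 libraries in 5% P, 3 in 10% P, 2 in 15% P, 1 in ChowCR and 4 in Chow, and the log2 difference of ChowCR from Chow was -1.69 ± 1.11 (SE) (limma, adjusted p = 0.87). Between the sexes 0 of 27 genes passed, beside 0.0533% of all symbols, and Rars was the 1 gene with an unadjusted p under 0.05, beside 5.01%. It averaged 3.56 ± 6.08 FPKM in females and 9.22 ± 7.41 FPKM in males (SD, n = 15 each), a log2 difference of -1.46 ± 0.70 (SE) (limma, adjusted p = 0.91). The coding transcript was listed in 3 of 15 females and 9 of 15 males. For a sex difference that varies between diets 0 of 27 passed, beside 0.0746% of all symbols, and 1, Mars2, had an unadjusted p under 0.05, beside 4.89%.

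Against ChowCR no synthetase gene passed in any of the P diets. In 5% P 0 of 27 passed, beside 0% of all symbols, and Mars alone had an unadjusted p under 0.05, beside 5.7%. In 10% P 0 passed, beside 0%, and Mars alone had an unadjusted p under 0.05, beside 5.35%. In 15% P 0 passed, beside 0%, and Mars and Yars had an unadjusted p under 0.05, beside 5.85%. In no gene did a P diet lie wholly above or below ChowCR, beside 0.234% and 0.383% of all symbols in 5% P, 0.149% and 0.234% in 10% P, and 0.192% and 0.415% in 15% P. Mars, which here is a retained-intron transcript of a few reads, had 0.544, 0.916 and 1.66 FPKM in 5% P, 0.0019, 1.01 and 1.29 in 10% P, 0, 0.886 and 2.95 in 15% P, 0, 0.0004 and 1.01 in ChowCR, and 0, 0.755 and 1.65 in Chow. Of the 6 ChowCR libraries 3 were at 0, and 5 were below the lowest 5% P library. The log2 difference from ChowCR was 1.30 ± 0.44 (SE) in 5% P (limma, adjusted p = 0.78), 1.09 in 10% P (limma, adjusted p = 0.90) and 0.96 in 15% P (limma, adjusted p = 0.78). That of ChowCR from Chow was -0.81 ± 0.44 (SE) (limma, adjusted p = 0.81).

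Of the 13 synthetases commonly given as targets of ATF4, 11 were tested, and 4 were higher in sign than Chow in 5% P, 4 in 10% P, 5 in 15% P and 5 in ChowCR, with 0 past the threshold (limma). The 11 include Mars and Iars, whose sums hold no coding transcript. Of all symbols 49.7%, 50.9%, 47.5% and 52.6% were higher in sign in the same order. The unadjusted p was under 0.05 for 0, 0, 1 and 0 of the 11, the 1 being Yars, which was lower, beside 5.12%, 6.02%, 5.26% and 6.25% of all symbols in either direction. Of the 30 other genes of ATF4 and amino acid shortage 22 were tested, and 14 were higher in sign in each of 5% P, 10% P, 15% P and ChowCR, with 0 past the threshold. Unadjusted p-values under 0.05 numbered 1, 1, 1 and 4 among the 22, all of them higher, to be read against the same shares of all symbols. With the P diets averaged 11 of the 22 were higher in sign, beside 48.1% of all symbols. In that comparison 4 of the 22 had an unadjusted p under 0.05 (limma), all of them higher, beside 5.76% of all symbols in either direction, with 0 past the threshold. Asns, the asparagine synthetase that is a standard readout of this response, had 34.3, 38.6 and 40.4 FPKM in 5% P, 25.8, 34.5 and 40.3 in 10% P, 26.6, 36.5 and 39.5 in 15% P, 27.3, 35.6 and 42.2 in ChowCR, and 30.2, 36.9 and 40.7 in Chow. Its log2 differences from Chow lay between -0.14 in 10% P and 0.06 in 5% P.

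Among these 22 the genes with the smallest p in each diet were 2 amino acid transporters, a stress factor and a transaminase. Slc3a2, the heavy chain of several amino acid exchangers, had 31.7, 38.7 and 51.6 FPKM in 10% P and 35.5, 38.8 and 47.5 in ChowCR, against 30.0, 32.6 and 34.1 in Chow. All 6 ChowCR libraries lay above all 6 Chow libraries, as did 0.469% of all symbols, and the log2 difference was 0.31 ± 0.11 (SE) in ChowCR (limma, adjusted p = 0.59) and 0.27 in 10% P (limma, adjusted p = 0.76). Slc38a2, a sodium-coupled neutral amino acid transporter, differed from Chow by 0.91 ± 0.37 (SE) in ChowCR (limma, adjusted p = 0.67), 0.81 in 15% P (limma, adjusted p = 0.94) and 0.73 in 5% P (limma, adjusted p = 0.94). Ddit3, the stress transcription factor CHOP, differed by 0.75 ± 0.30 (SE) in 5% P (limma, adjusted p = 0.94). Gpt2, a mitochondrial alanine transaminase, differed by 1.58 in 10% P (limma, adjusted p = 0.83) and 1.45 in 15% P (limma, adjusted p = 0.94), each ± 0.80 (SE). None of these passed.

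The remaining groups are given by their counts. Of the 16 cytosolic synthetase genes 5 were higher in sign than Chow in 5% P, 7 in 10% P, 7 in 15% P and 8 in ChowCR, and of the 10 mitochondrial ones 6, 5, 6 and 6 were. Of the 5 tested synthetases of the multi-synthetase complex 2, 2, 3 and 3 were higher, but Mars and Iars are among these 5 and hold no coding transcript in their sums. The 11 tested class I enzymes, built on a Rossmann fold, had 3, 3, 5 and 4 higher, and the 15 tested class II enzymes 7, 8, 7 and 10. Of 12 tested partners in cytosolic translation 5, 4, 4 and 8 were higher, and of 14 in mitochondrial translation 7, 5, 7 and 9. These counts stand beside the shares of all symbols higher in sign given above. No gene of these groups passed the threshold against Chow in any of the 4 diets (limma).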

How the data were processed

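FPKM values of 46109 rows, nearly all transcripts, are what the authors deposited, and a missing value marks a transcript that a library did not list. Per the labels' protocols, RNA was sequenced with a stranded poly(A) kit for 100 cycles from one end. Per the submitters' processing notes, TopHat2 2.0.14, StringTie 1.2.4, featureCounts 1.4.6, DESeq2 1.16.1 and mm10 were used, with roles and strand setting not given in the sources used here. FPKM was summed per symbol with unlisted transcripts at 0, and log2(sum + 0.5) was tested two-sided by limma 3.58.1 under R 4.3.3 (moderated with a mean trend), with a term for sex and all 30 libraries in 1 fit, over 9389 symbols with a mean of at least 0.5. The slope over protein percent rests on 18 libraries. Adjusted p-values are Benjamini-Hochberg values within a comparison. Too few low values were whole reads for a count test. The procedure was tested on simulated data. Fold changes understate those of low genes. One gene of the 27 and some promoter matches are not reported here, and counts over the 27 genes include that gene. Genes described singly were otherwise the 3 with the smallest p in each pairwise diet comparison and the most abundant of each compartment, with Aars, Mars2 and Asns named after their values were seen. The members and lists were chosen with earlier results of these data known. Annotation came from GENCODE M21 and RefSeq GRCm38.p6. Alternatives were other pseudocounts, filters, scalings, models, sexes and transcript choices, and each library left out.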

Additional observations from a re-analysis of the deposited data

Results flagged for a closer look

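Within the 130 groups of 6 libraries formed by 26 genes and 5 diets, 24 held a library whose gap to its nearest neighbour took up more than 0.625 of the group's range, 10 at the low end and 14 at the high end. Chance flags about 1 in 20 groups. Values are summed FPKM, and no explanation was tested.

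The low libraries were in 6 genes. Eprs was at 1.26 in 10% P replicate 4 and at 0.602 in ChowCR replicate 5. Qars was at 1.02 in 5% P replicate 5, at 1.28 in 10% P replicate 6 and at 2.41 in 15% P replicate 4. Fars2 was at 0 in 5% P replicate 5 and at 0 in ChowCR replicate 3. Tars was at 0 in 10% P replicate 4, Tarsl2 at 0 in 10% P replicate 3 and Wars at 15.6 in 10% P replicate 6.

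The high libraries lay mostly in genes near 0 in the rest of their diet. Mars2 reached 2.08 in 5% P replicate 4, 3.04 in 10% P replicate 1 and 4.90 in ChowCR replicate 1. Mars reached 2.95 in 15% P replicate 2 and 1.01 in ChowCR replicate 5, and Nars2 reached 1.95 in ChowCR replicate 2. Rars reached 17.1 in ChowCR replicate 5, the one ChowCR library that listed its coding transcript. Cars reached 9.14 in 10% P replicate 5, Farsb 1.63 in 10% P replicate 4, Iars 1.79 in 5% P replicate 4 and Vars2 3.48 in 10% P replicate 1. In genes with values in all libraries of the diet, Fars2 reached 6.93 in 10% P replicate 5, Iars2 10.97 in 15% P replicate 5 and Tars2 8.51 in Chow replicate 4.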

How the results depend on the processing

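No synthetase gene passed the threshold under any of the 19 alternatives that could be computed or with any 1 of the 30 libraries left out, in each of the 12 comparisons (limma). For the 21 differences described singly, 355 values under alternatives and 630 with a library left out were computed, none passed, and 4 changed sign. Those were Mars in 15% P against ChowCR in males alone, at -0.051, Iars2 in 5% P against ChowCR in females alone, at 0.21, Farsa in 10% P against ChowCR in females alone, at 0.019, and Tars2 in the mean of the P diets when only the leading transcript was used and unlisted values were missing, at -0.10. The cause was not tested. The last setting and the use of protein-coding transcripts alone were chosen after seeing the data. Yars in 15% P against Chow kept its sign, between -0.74 and -0.16 over the alternatives and between -0.55 and -0.38 with a library left out. Scaling moved the median of all symbols by under 0.1. No paired analysis was possible because the labels give no replicate number shared between diets. Depth limits Mars, Farsb and Iars, at about 1.2 to 3.7 reads a library. In genes whose coding transcript was often unlisted, such as Rars, intervals were wide, and why it was unlisted was not tested.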
